A study of Mus musculus with 4 samples.

Results

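The Wnt pathway genes described here are the ligands *Wnt6* and *Wnt9a*, the Frizzled receptors *Fzd1*, *Fzd6* and *Fzd10*, the feedback inhibitors *Notum*, *Rnf43* and *Dkk1*, and the transcription factor *Sp8*. They were taken by name from a deposited table of 920 genes, which holds all 9 of them. RNA-seq was performed on 46C mESCs, a mouse embryonic stem cell line that carries a GFP reporter at the neural gene *Sox1*. The cells were infected with *scramble* control lentivirus (n = 2 libraries) or *Rhox6* shRNA lentivirus (n = 2 libraries) and kept for 24 h in medium with serum before RNA was taken. Both groups therefore share the cell line, the infection and the medium, and differ in the hairpin. The labels do not say which *Rhox6* hairpin was used or whether a group's libraries are separate cultures, so the spread within a group may be technical.

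All 920 genes carry the mark of a significant call that the authors made on these same 4 libraries, and the 9 genes were selected on their levels in this contrast. Their differences are therefore given as a description, without a test. The values are normalized expression levels with 2 decimals in a unit that is not named, and no read counts accompany them, so the depth is unknown. Because it is not stated whether the levels are per length, each gene is mainly compared between libraries. The sums of marker levels, the limits on low levels and the search for close profiles do use levels across genes, which may reflect gene length. *Rhox6* has no row in the table, so the target of the hairpin is not among the genes listed as called on these 4 libraries. Its level in them is not given, so its knockdown could not be checked here. The authors report lower *Rhox6* transcript levels by qRT-PCR in cells infected with *Rhox6* shRNA lentivirus. Below, a knockdown library is one from cells given *Rhox6* shRNA, whatever its level of *Rhox6*. Of 13 marker genes of mouse embryonic stem cells, *Nanog*, *Tbx3* and *Klf4* are listed, with levels of at least 16.5 in every library. All 3 were higher in both *Rhox6* shRNA libraries (54.1% of all listed genes), at ratios of the mean levels of 2.56, 3.15 and 2.31. Their summed level went from 175 and 171 in *scramble* to 451 and 463 in *Rhox6* shRNA cells. The authors name *Nanog* among the candidate genes that did not change by qRT-PCR as sequencing showed. The part of these 3 genes in the levels of the Wnt pathway genes was not tested. None of 10 fibroblast markers is listed, but the table gives no level for a gene outside the calls.

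Wnt proteins are secreted ligands that carry a lipid and bind a Frizzled receptor together with an LRP5 or LRP6 co-receptor, which stabilises β-catenin and lets TCF/LEF factors activate their target genes. Several of these targets feed back on the pathway. Notum removes the lipid from the ligand, Rnf43 is a ubiquitin ligase that takes Frizzled receptors off the cell surface, and Dkk1 blocks the LRP co-receptors. In mESCs, activity of this pathway supports self-renewal, and inhibition of GSK3 is part of a common serum-free medium. The comparison asks how ligands, receptors and feedback inhibitors stood in mESCs with *Rhox6* shRNA.

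TCF/LEF factors can bind a core that reads CTTTGA on one strand and TCAAAG on the other. The promoter windows of the 9 genes were searched for this core because *Notum*, *Rnf43*, *Dkk1* and *Sp8* are known targets of the pathway. Apart from the longer form given below, other forms of the site were not searched. RefSeq windows of GRCm38.p6, from 250 bases before to 50 bases after a transcript start, were matched by symbol for 7 of the 9 genes, in 10 windows. The others are *Fzd6* and *Notum*. The core occurred in 3 of the 10 windows, 1 each of *Fzd1*, *Sp8* and *Dkk1*, and in 16.0% of all 32851 windows. The longer form CTTTGAT, which contains the core, occurred on either strand in 3.73% of all windows and in 0 of the 10. The stretches around the matches are shown 5′ to 3′ on the strand of the gene, with the core in capitals, because they are the sequence feature these genes could share.
*Fzd1*, chr5:4758437-4758466: cgcagcacTCAAAGtagcagtctgtgacca
*Sp8*, chr12:118847171-118847200: ctccgcggcactTCAAAGccggagagggag
*Dkk1*, chr19:30549653-30549682: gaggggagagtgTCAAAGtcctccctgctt
*Dkk1*, chr19:30549596-30549625: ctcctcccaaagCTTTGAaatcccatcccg
The *Fzd1* match starts 242 bases before the RefSeq start and lies outside the gene as GENCODE M21 draws it. The *Sp8* match, 50 bases before the start of 1 of its 3 windows, lies in an intron of a longer transcript. *Dkk1* is the member with more than 1 match, at 174 and 117 bases before the start. The GENCODE model of *Dkk1* starts farther upstream than the RefSeq one. The first match shares 1 of its 6 bases with it, and the second lies within its untranslated exon. A match of these letters is a description of the window and not a binding site. Of the 2 genes with a match outside *Dkk1*, both were higher in *Rhox6* shRNA cells (54.1% of all listed genes), while *Dkk1* was lower (44.2%). Nothing is read from these directions. The windows of *Wnt6*, *Wnt9a* and *Fzd10* are rich in G and C, at 76.7%, 83.3% and 77.7%, and hold 31, 58 and 45 CpG dinucleotides.

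As deposited, 6 of the 9 genes were higher in both *Rhox6* shRNA libraries than in both *scramble* libraries (54.1% of all listed genes). These were *Wnt6*, the 3 Frizzled receptors, *Notum* and *Sp8*. The other 3, *Wnt9a*, *Rnf43* and *Dkk1*, were lower in both (44.2% of all listed genes). No member had overlapping groups. By the ratio of the mean levels, *Rhox6* shRNA over *scramble*, 5 members were at 2 or more (52.6% of all listed genes) and 3 at 0.5 or less (38.9%), with *Fzd6* in between. After scaling by median ratios, 1 member (*Sp8*) and 152 of all listed genes were at 2 or more, and the groups of *Fzd6* overlapped. Such scaling takes most genes as unchanged, which does not hold in a table of called genes. Since the table was built from calls of this contrast, nothing is read from these shares. In bulk RNA, fewer cells that express a gene and less of its RNA per cell cannot be told apart.

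**Figure D1:**
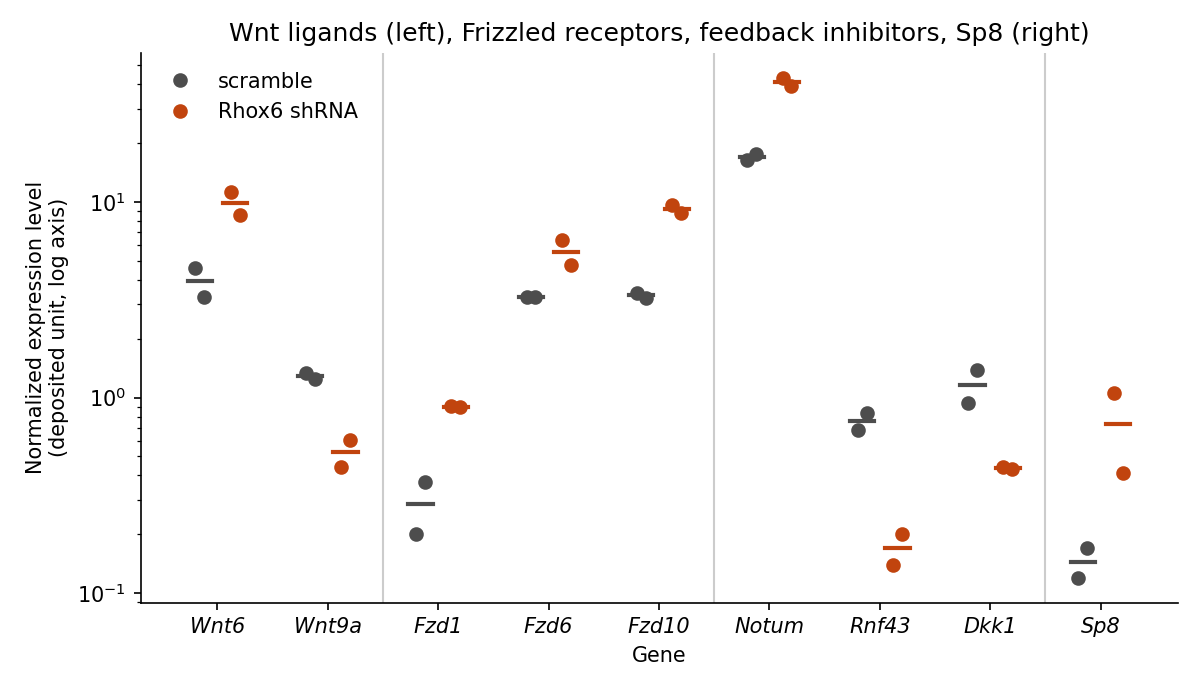
Normalized expression level (log axis, deposited unit) of the 9 genes, with 1 point per library and a bar at the mean of 2 libraries, for *scramble* (grey) and *Rhox6* shRNA (orange). The *Rhox6* shRNA points lie above the *scramble* points for 6 genes and below them for *Wnt9a*, *Rnf43* and *Dkk1*.

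The 2 listed ligands went apart. *Wnt6* (ENSMUSG00000033227), a ligand of epithelia and of the early embryo, spans bases 74771892 to 74785322 of chromosome 1 (GRCm38, + strand). Its level was 4.62 and 3.25 in *scramble* and 11.24 and 8.6 in *Rhox6* shRNA cells. The lower *Rhox6* shRNA library was thus above the higher *scramble* library, by a ratio of 1.86, while the widest pair of libraries gave 3.46. The ratio of the means (3.94 ± 0.97 and 9.92 ± 1.9, SD, n = 2 each) was 2.52. The libraries within a group differed by a ratio of 1.42 in *scramble* and 1.31 in *Rhox6* shRNA, more than the medians of 1.17 and 1.14 over the listed genes with levels above 0. The authors do not name *Wnt6* or *Wnt9a* among the candidates whose qRT-PCR differed from the sequencing. They report lower *Wnt6* transcript levels when *Rhox6* was induced with doxycycline. In *Rhox6*-knockout mESCs, where *Wnt6* was also measured, they name *Tbx3* and *Lefty1* as raised, and not *Wnt6*.
*Wnt9a* (ENSMUSG00000000126), a ligand known from the development of joints and cartilage, lies on chromosome 11 from 59306928 to 59333552 on the + strand. Its level was 1.33 and 1.25 in *scramble* and 0.44 and 0.61 in *Rhox6* shRNA cells. Both *scramble* libraries were close to each other, and the knockdown libraries lay below them at ratios of 0.331 to 0.488. The ratio of the means (1.29 ± 0.057 and 0.525 ± 0.12, SD, n = 2 each) was 0.407. Of the 19 mouse Wnt ligand genes, these are the 2 that the table lists.

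All 3 listed Frizzled receptors were higher in both *Rhox6* shRNA libraries at the deposited scale (54.1% of all listed genes). When the libraries were scaled by median ratios, *Fzd6* was not higher, with a ratio of 0.930. The authors checked their candidate genes by qRT-PCR and name *Fzd1* and *Fzd6*, but not *Fzd10*, among those that did not change as sequencing showed. *Fzd10* (ENSMUSG00000081683) is a single-exon gene on chromosome 5 from 128600844 to 128604093 on the + strand. Its level was 3.44 and 3.23 in *scramble* and 9.66 and 8.75 in *Rhox6* shRNA cells. The libraries of each group were close to each other, and every knockdown library was at 2.54 to 2.99 times a *scramble* library. The means were 3.34 ± 0.15 and 9.21 ± 0.64 (SD, n = 2 each), a ratio of 2.76.
*Fzd1* (ENSMUSG00000044674), a second single-exon receptor gene on chromosome 5 from 4753839 to 4758035 on the - strand, was at low levels. It had 0.2 and 0.37 in *scramble* and 0.91 and 0.89 in *Rhox6* shRNA cells. The knockdown libraries were alike, and the spread lay in the *scramble* libraries, so that the library ratios ran from 2.41 to 4.55 around a ratio of the means of 3.16. Without *scramble* replicate 2 the ratio of *Fzd1* was 4.50, and without *scramble* replicate 1 it was 2.43.
*Fzd6* (ENSMUSG00000022297), a receptor best known for planar cell polarity in skin and hair, lies on chromosome 15 from 39006034 to 39038188 on the + strand. Its level was 3.26 in both *scramble* libraries against 6.4 and 4.74 with *Rhox6* shRNA. The second knockdown library thus stood closer to the controls, at a ratio of 1.45, than the first at 1.96. The means were 3.26 and 5.57 ± 1.2 (SD, n = 2 each) and the ratio was 1.71. Of the 504 listed genes with a higher mean in *Rhox6* shRNA cells, 0.992% had a smaller ratio than *Fzd6*. The lncRNA gene *Gm26704* on the other strand meets an exon of *Fzd6*, and the sources used here do not state whether reads were counted by strand. The table lists 3 of the 10 Frizzled genes.

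Among the feedback inhibitors, *Notum* was higher and *Rnf43* and *Dkk1* were lower in *Rhox6* shRNA cells. *Notum* (ENSMUSG00000042988), the secreted carboxylesterase that inactivates Wnt ligands, lies on chromosome 11 from 120653788 to 120661175 on the - strand. Its level was 16.47 and 17.58 in *scramble* and 43.11 and 39.4 in *Rhox6* shRNA cells. The groups were well apart, with library ratios of 2.24 to 2.62. The means were 17.0 ± 0.78 and 41.3 ± 2.6 (SD, n = 2 each), a ratio of 2.42. The antisense genes *Notumos* and *Myadml2os* meet exons of *Notum*. Without a statement on strand, their reads and those of *Notum* cannot be told apart here.
*Rnf43* (ENSMUSG00000034177), which encodes the ubiquitin ligase that lowers Frizzled at the membrane, lies on chromosome 11 from 87662722 to 87735539 on the + strand. Its level was 0.68 and 0.83 in *scramble* and 0.14 and 0.2 in *Rhox6* shRNA cells. Every knockdown library was at 0.169 to 0.294 of a *scramble* library. The means were 0.755 ± 0.11 and 0.17 ± 0.042 (SD, n = 2 each), and their ratio of 0.225 was the farthest from 1 of the 3 lower members. Of the 416 listed genes with a lower mean, 88.0% had a ratio closer to 1 than *Rnf43*. All 4 levels were below 1, where a step of 0.01 in the deposited values is a visible share of the level.
*Dkk1* (ENSMUSG00000024868), a secreted antagonist of the LRP co-receptors, lies on chromosome 19 from 30545863 to 30549665 on the - strand. Its level was 0.94 and 1.38 in *scramble* and 0.44 and 0.43 in *Rhox6* shRNA cells. The knockdown libraries were nearly equal, and the *scramble* libraries differed by a ratio of 1.47. The means were 1.16 ± 0.31 and 0.435 ± 0.0071 (SD, n = 2 each), a ratio of 0.375, close to the median of 0.388 over the lower genes of the table.

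*Sp8* (ENSMUSG00000048562), a zinc finger transcription factor of limb and forebrain that acts downstream of Wnt signals, lies on chromosome 12 from 118846329 to 118852576 on the + strand. Its level was 0.12 and 0.17 in *scramble* and 1.06 and 0.41 in *Rhox6* shRNA cells. The 2 knockdown libraries disagreed by a ratio of 2.59, the widest within-group ratio of the 9 genes, although both lay above the controls. The means were 0.145 ± 0.035 and 0.735 ± 0.46 (SD, n = 2 each). Their ratio of 5.07 was 2.83 without *Rhox6* shRNA replicate 1 and 7.31 without replicate 2, so 1 library sets much of its size. The library ratios ran from 2.41 to 8.83.

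**Figure D2:**
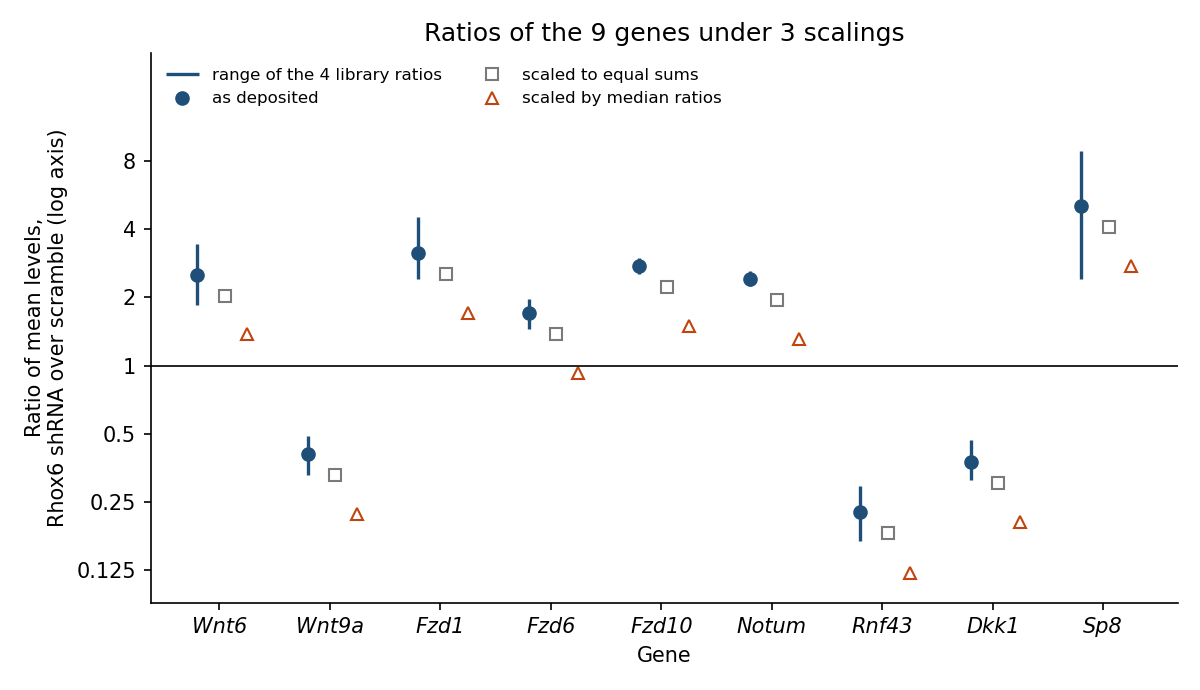
Ratio of mean levels, *Rhox6* shRNA over *scramble* (log axis), for the 9 genes as deposited (filled circles, with a line from the lowest to the highest of the 4 library ratios), after scaling to an equal sum per library (squares) and after scaling by median ratios (triangles). Both scalings lower every ratio, *Fzd6* passes below 1 at 0.930 under median ratios, and the line of *Sp8* is the longest, from 2.41 to 8.83.

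The size of these differences depended on the scale. On log2(level + 1), the difference was 1.15 for *Wnt6*, 1.23 for *Fzd10* and 1.23 for *Notum*, against 0.57 for *Fzd1*, 0.61 for *Fzd6* and 0.57 for *Sp8*. It was -0.59 for *Wnt9a*, -0.58 for *Rnf43* and -0.58 for *Dkk1*. The added 1 compresses the genes at low levels. By the log2 ratio of the means, *Sp8* came first among the higher genes at 2.34 and *Rnf43* was lowest at -2.15, whereas *Fzd10* was at 1.46 and *Notum* at 1.28. The median difference of log2(level + 1) was 0.57 over the 9 genes and 0.56 over all listed genes. The median over the 9 genes was 1.27 with 0.1 added in place of 1, 1.28 with 0.01 added, and 0.26 after scaling by median ratios. For 3 members, *Fzd1*, *Rnf43* and *Sp8*, both group means were below 1, as for 94 of the 920 listed genes.
The listed levels summed to 9627 and 9586 in *scramble* and to 11973 and 11853 in *Rhox6* shRNA cells. Scaling to equal sums moved the median difference of all listed genes by -0.12 on the log2 scale and scaling by median ratios by -0.42, in a table of genes that were selected for their change. With these scalings the table held 342 and 152 genes at a ratio of at least 2 and 407 and 415 at 0.5 or less, against 484 and 358 as deposited. *Wnt6* was then at 2.03 and 1.38, *Fzd10* at 2.23 and 1.50, *Notum* at 1.95 and 1.32, *Fzd1* at 2.54 and 1.71, and *Sp8* at 4.08 and 2.75. The lower members moved farther from 1, with *Wnt9a* at 0.328 and 0.221, *Rnf43* at 0.182 and 0.122, and *Dkk1* at 0.302 and 0.203.

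**Figure D3:**
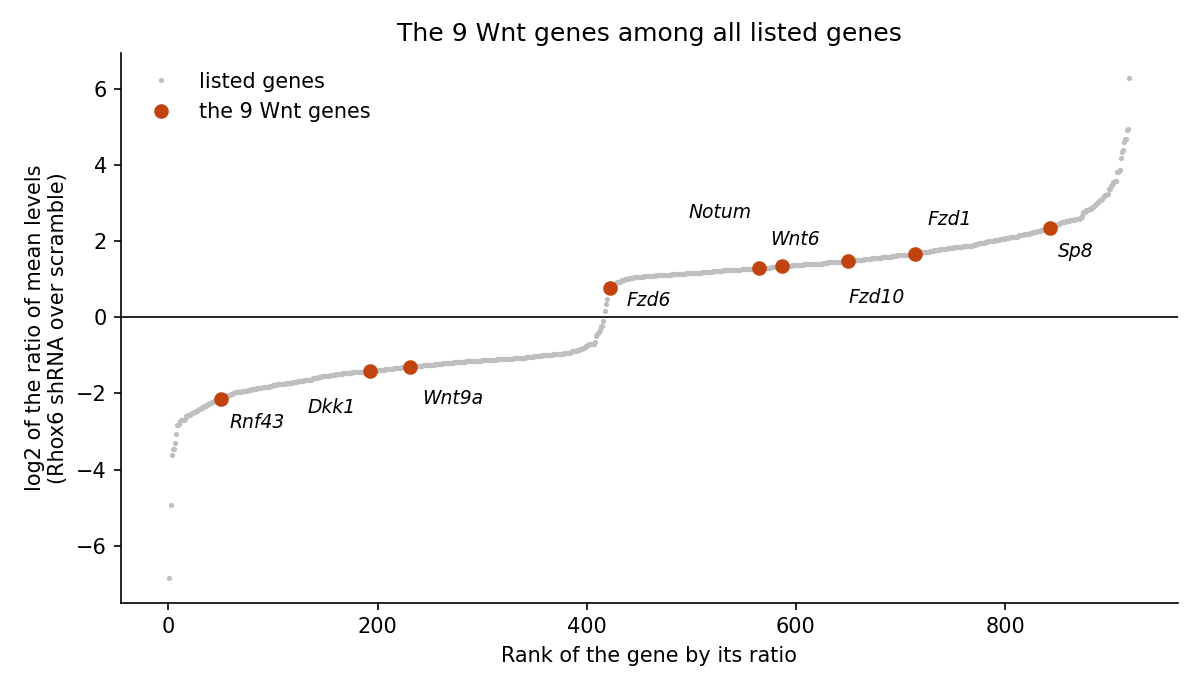
The log2 ratio of mean levels for the 919 listed genes with a finite ratio, ordered from lowest to highest (grey), with the 9 Wnt pathway genes marked (orange). *Rnf43* at -2.15 and *Sp8* at 2.34 stand toward the ends, *Fzd6* at 0.77 stands at the step between lower and higher genes, and the others lie between.

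The pathway was also followed through lists of its known genes. Of 133 symbols of ligands, receptors, secretion factors, inhibitors, signal transducers, polarity genes and targets, 16 are in the table, the 9 above and 7 others. All 7 others were higher in both *Rhox6* shRNA libraries at the deposited scale (54.1% of all listed genes), although the libraries of *Apcdd1* overlapped between the groups when scaled by median ratios. Each is in the table because it was called on this contrast, so nothing is read from this count. The secreted and membrane inhibitors held most of them. Of 21 such symbols, 6 are listed, and *Dkk1* was the one of these 6 that was lower.
*Sfrp1*, a secreted protein with a Frizzled-like domain that binds Wnt ligands, was at 14.03 and 12.49 in *scramble* and 44.99 and 45.34 in *Rhox6* shRNA cells. The ratio of the means was 3.41, and the 4 library ratios stayed within 3.21 to 3.63. Scaling by median ratios left it at 1.85. *Sfrp5*, of the same family, was at 0.97 and 0.44 in *scramble* and 1.87 and 1.96 in *Rhox6* shRNA cells, a ratio of 2.72. The ratio was 4.35 without *scramble* replicate 1 and 1.97 without *scramble* replicate 2.
*Dkk3*, a Dickkopf family member that does not act on the LRP co-receptors as Dkk1 does, was at 2.33 and 2.15 in *scramble* and 5.82 and 5.72 in *Rhox6* shRNA cells, a ratio of 2.58. *Dkk3* and *Dkk1* of the one family thus stood on opposite sides of the controls. *Apcdd1*, a membrane inhibitor of Wnt signaling, was at 1.36 and 0.99 against 2.99 and 2.38, a ratio of 2.29.
Outside the inhibitors, *Tle3*, a Groucho family corepressor that binds TCF/LEF factors, was at 14.13 and 14.32 in *scramble* and 31.7 and 29.44 in *Rhox6* shRNA cells, a ratio of 2.15 (1.17 when scaled by median ratios). It is the listed member of 33 symbols for intracellular transduction. *Ror1*, a receptor tyrosine kinase for Wnt ligands and the listed member of 7 co-receptors and other receptors, was at 0.22 and 0.14 against 1.06 and 0.87, a ratio of 5.36. The homeobox gene *Evx1*, a target in the primitive streak, was at 0.04 and 0.09 against 0.63 and 0.77. Its ratio of 10.8 was 17.5 without *scramble* replicate 2 and 7.78 without *scramble* replicate 1. The antisense gene *Evx1os* meets an exon of *Evx1*.

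**Figure D4:**
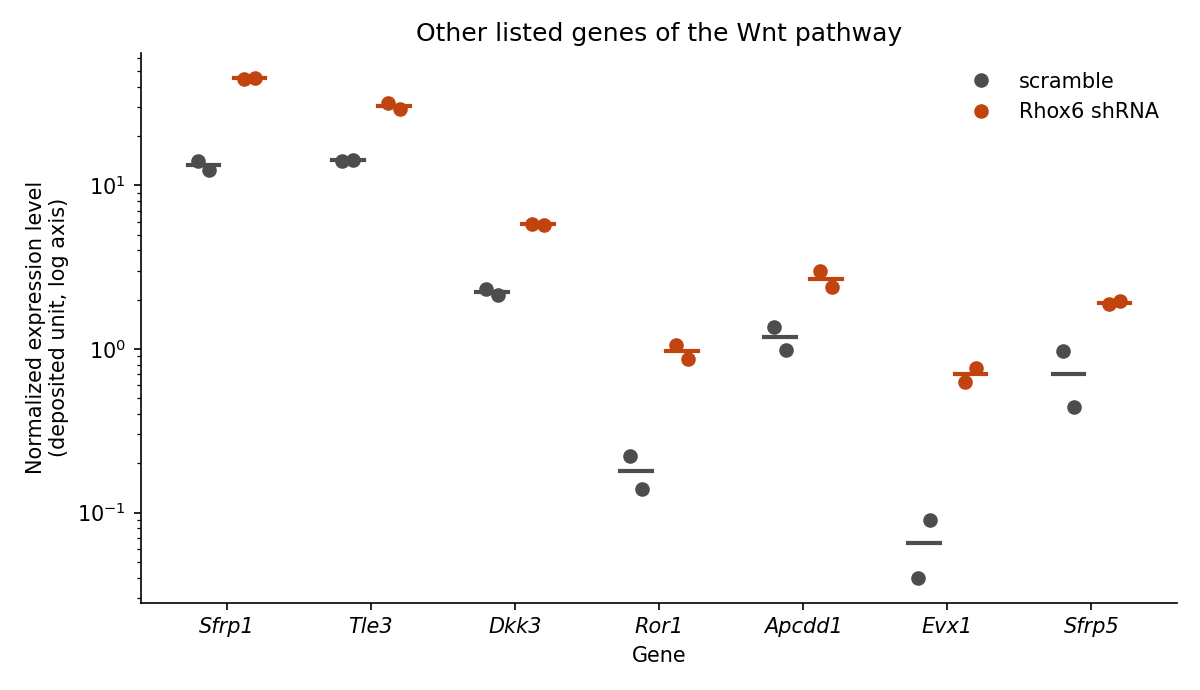
Normalized expression level (log axis, deposited unit) of the 7 other Wnt pathway genes in the table, with 1 point per library and a bar at the mean of 2 libraries. Both *Rhox6* shRNA points (orange) lie above both *scramble* points (grey) for each gene, most narrowly spread for *Dkk3* and *Tle3*. When scaled by median ratios, the libraries of *Apcdd1* overlap between the groups.

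Of 29 symbols of Wnt target genes, which count *Ccn4* under its older name *Wisp1* too, 5 are listed. *Notum*, *Sp8* and *Evx1* were higher (54.1% of all listed genes) and *Rnf43* and *Dkk1* lower (44.2%). All but *Evx1* are members already counted above, so nothing is read from this split. The 2 symbols for Wnt secretion and the 13 of planar cell polarity are not in the table, and neither are the R-spondins and their LGR receptors, which share a list of 9 with *Rnf43*. Their levels were not analysed here. Markers of other cell types were listed beside these genes. Of 8 early neural markers, *Sox1* and *Pax6* are listed, with summed levels of 0.69 to 1.04 in *scramble* and 3.57 to 4.48 in *Rhox6* shRNA cells. Of 9 mesendoderm markers, *Gata6* is listed, at 2.03 to 2.61 and 0.83 to 0.91. None of these 3 genes was at 0 in a library, and their part in the levels of *Sp8*, *Evx1* and the other Wnt pathway genes was not tested.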

How the data were processed

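RNA of 46C mESCs was sequenced in 4 libraries, grouped by the sample labels into *scramble* (n = 2) and *Rhox6* shRNA (n = 2). The authors deposited a table of 920 called genes with a normalized signal per library, called the expression level here. Its unit, the read counter and the gene annotation were not given in the sources used here. Bowtie 0.12.2 and mm9 stand in the submitters' processing notes, without a role. Further deposited columns hold the authors' fold change, p-values, direction and group means, and were not used.

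Levels were read with Python 3.11.15, pandas 2.3.3 and numpy 2.4.6. For each gene the ratio of mean levels, the 4 library ratios and the difference of log2(level + 1) were computed, without a filter on low levels, and checked on simulated levels. No test was made. Alternatives were other scalings, pseudocounts of 0.1 and 0.01, low-level filters and leaving out each library. Gene places came from GENCODE M21 (GRCm38) by Ensembl ID, promoters from RefSeq (GRCm38.p6) by symbol. The members and lists were chosen with earlier results of these data known. Every member and every other pathway list gene in the table is named. Figures were drawn with matplotlib 3.10.9.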

Additional observations from a re-analysis of the deposited data

How the results depend on the processing

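The counts of members above (6) and below (3) both *scramble* libraries held when sums were equalised. They also held when any 1 library was left out, but by construction, as no member had overlapping groups. The counts at a ratio of at least 2 (5) and at most 0.5 (3) held when any 1 library was left out. With equal sums the count at a ratio of at least 2 was 4, as *Notum* was at 1.95, and the count at most 0.5 was still 3. Scaling by median ratios reversed *Fzd6* (difference of log2(level + 1) of -0.095) and left 1 member, *Sp8*, at a ratio of at least 2. As every listed gene was called as changed, this scaling cannot decide the direction of *Fzd6*. With a mean level of at least 1 required in either group, 4 members were above and 2 below both *scramble* libraries. Of these, 3 were at a ratio of at least 2. With at least 3 required, a limit chosen after seeing the data, 4 members were left. Of them, 3 were at a ratio of at least 2, 0 at 0.5 or less and 0 below both *scramble* libraries. All lower members had lower levels than that. These limits were not counted over all listed genes, so nothing is read from the counts. No test was made, with or without pairing by replicate number. With a replicate block the mean differences stay the same by construction (1.15 for *Wnt6*), and the differences within a number were 0.88 and 0.27 for *Sp8*. Deviations of libraries with number 1 correlated at r = -0.044 over the 920 genes. With 2 libraries per group and no counts, neither depth nor counting error could be set.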

Other observations

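The listed genes with the closest profile were found by the root mean square distance of log2(level + 1) over the 4 libraries, which uses both the level and the difference. For *Notum* they were *Mras*, which encodes a Ras family GTPase, at a distance of 0.10, the pluripotency factor gene *Klf4* at 0.11, and *Dpysl3* at 0.13. *Klf4* was at 18.28 and 16.51 in *scramble* and 39.57 and 40.95 in *Rhox6* shRNA cells, against 16.47, 17.58, 43.11 and 39.4 for *Notum*. For *Fzd10* they were *Hmcn2* at 0.082, *R3hdml* at 0.11 and *Gm45470* at 0.13.

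For *Dkk1* they were *Irs3* at 0.074, *Lef1os1* at 0.088 and *Icam5* at 0.095. *Lef1os1* is named as a transcript from the strand opposite *Lef1*, the gene of a TCF/LEF factor, and *Lef1* itself has no row in the table. *Lef1os1* was at 0.77 and 1.23 in *scramble* and 0.41 and 0.37 in *Rhox6* shRNA cells. Whether its reads were told apart from those of *Lef1* by strand is not stated. Such likeness over 4 libraries is a description and says nothing of shared control. As the unit of the levels is not named, a distance between genes may also reflect their lengths.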
